A study of Mus musculus with 12 samples.

Results

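The genes described here are 10 genes of the G1 decision, the step at which a cell either enters another round of DNA replication or stops. They are the D-type cyclins Ccnd1, Ccnd2 and Ccnd3, their kinases Cdk4 and Cdk6, the Cip/Kip inhibitors Cdkn1a (p21) and Cdkn1b (p27), the Ink4 inhibitors Cdkn2c (p18) and Cdkn2d (p19), and the retinoblastoma gene Rb1. They were chosen by symbol, and all 10 were found among the 31301 gene symbols of the count table. They were followed in basophils grown from wild-type C57BL/6J mouse bone marrow for 7 days with 1 of 2 cytokines. One was IL-3 (interleukin-3), at 0.3 ng/mL, and the other TSLP (thymic stromal lymphopoietin), at 1 µg/mL in the treatment protocol, although a sample label gives another unit for this dose. With each cytokine, immature cells with high FcεRIα and low CD49b and mature cells with low FcεRIα and high CD49b were sorted. RNA was sequenced in 3 libraries for each of the 4 groups. The labels do not say whether an immature and a mature library with the same number came from the same culture. The study used these libraries to ask whether TSLP-elicited basophils are closer to mature or to immature IL-3-elicited ones. The labels do not give the age of the mice or say whether the 3 cultures of a group came from separate animals, so p-values measure the spread between these cultures.

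D-type cyclins are made in response to growth factors and cytokines, bind Cdk4 or Cdk6, and let these kinases phosphorylate the retinoblastoma protein, which then releases E2F transcription factors that turn on S-phase genes. Ink4 proteins bind Cdk4 and Cdk6 and block the pairing with cyclin D. Cip/Kip proteins bind cyclin-kinase complexes and inhibit chiefly those of Cdk2. In blood cell lineages the end of proliferation usually accompanies terminal differentiation, and several of these genes are known to change at that point.

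Library totals ranged from 1720065 counts in an IL-3 immature library to 3685285 in a TSLP mature one. All 8 basophil markers listed had counts in every library, and the 6 mast cell markers summed to at most 8.9 CPM (counts per 1000000 counts of the library, after scaling). The 15 S and G2/M genes used as proliferation indicators summed to 2550 to 2630 CPM in IL-3 immature, 147 to 162 CPM in IL-3 mature, 1840 to 1910 CPM in TSLP immature and 333 to 359 CPM in TSLP mature libraries. These sums moved with maturation and cytokine, in the same comparisons as the members below, and their part in those results was not tested. One library, TSLP mature 1, stood apart from its group: chi-square per degree of freedom against the other two was 40.8 and 51.4, while all other replicate pairs lay between 2.08 and 13.1. Its 8 neutrophil markers summed to 709 CPM, against 22.5 and 34.9 CPM in the other TSLP mature libraries, and its 7 B lineage markers to 136 CPM against 14.8 and 17.5 CPM. Calls of members that change without this library are given with and without it. Other marker lists moved with stage. The 6 monocyte or macrophage markers summed to 83.8 to 106 CPM in IL-3 immature, 547 to 663 CPM in IL-3 mature, 192 to 230 CPM in TSLP immature and 464 to 677 CPM in TSLP mature libraries. Most of these counts were Ccr2, Ly6c2 and Adgre1, while C1qa averaged at most 6 CPM in any group. The neutrophil markers summed to 731 to 806 CPM in IL-3 immature, 264 to 385 CPM in IL-3 mature and 316 to 409 CPM in TSLP immature libraries, where Mpo averaged 714, 1.46 and 333 CPM. Of the 7 neutrophil markers tested, 1 (Mpo) was higher and 1 (Retnlg) lower in IL-3 immature than in IL-3 mature cells. Retnlg averaged 4.44 CPM in IL-3 immature and 106 CPM in IL-3 mature cells, and S100a9, which did not pass, 32 and 111 CPM. With TSLP, 1 was higher and 5 were lower in immature cells, in a fit that includes TSLP mature 1. The basophil markers summed to 38000 to 41600 CPM before and 10300 to 12500 CPM after maturation with IL-3, and to 27400 to 30400 and 8520 to 11600 CPM with TSLP. Of these 8 markers 4 were higher and 4 lower in IL-3 immature than in IL-3 mature cells. The part of these lists in the maturation results was not tested. In sorted bulk samples, fewer cells of a type and less RNA per cell cannot be told apart.

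Maturation split the members into those that were higher in immature cells and those that were higher in mature cells. The Cip/Kip inhibitors were both higher in mature cells of either culture, whereas within the D-type cyclins and within the Ink4 inhibitors 1 gene changed and another did not pass the test. Of the 9 members with enough counts to be tested, 6 changed with maturation in the IL-3 cultures by edgeR's quasi-likelihood test (adjusted p under 0.05), where 46.2% of all 10861 genes tested did. Cdk4, Cdk6 and Cdkn2c were higher in immature cells, a direction taken by 22.1% of all genes, and Ccnd2, Cdkn1a and Cdkn1b were lower, a direction taken by 24.1%. In TSLP cultures 5 members changed against a background of 25.1%: Cdk6 and Cdkn2c were higher in immature cells (12.2% of all genes) and Ccnd2, Cdkn1a and Cdkn1b were lower (12.9%). Without TSLP immature 1, TSLP immature 3 or TSLP mature 2 the TSLP count was 3, since the 2 Cip/Kip inhibitors no longer passed. The median absolute log2 fold change of the 9 members was 1.29 with IL-3 and 0.69 with TSLP, beside 0.66 and 0.43 over all genes tested. Ccnd3, Cdkn2d and Rb1 passed the test in neither.

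**Figure D1:**
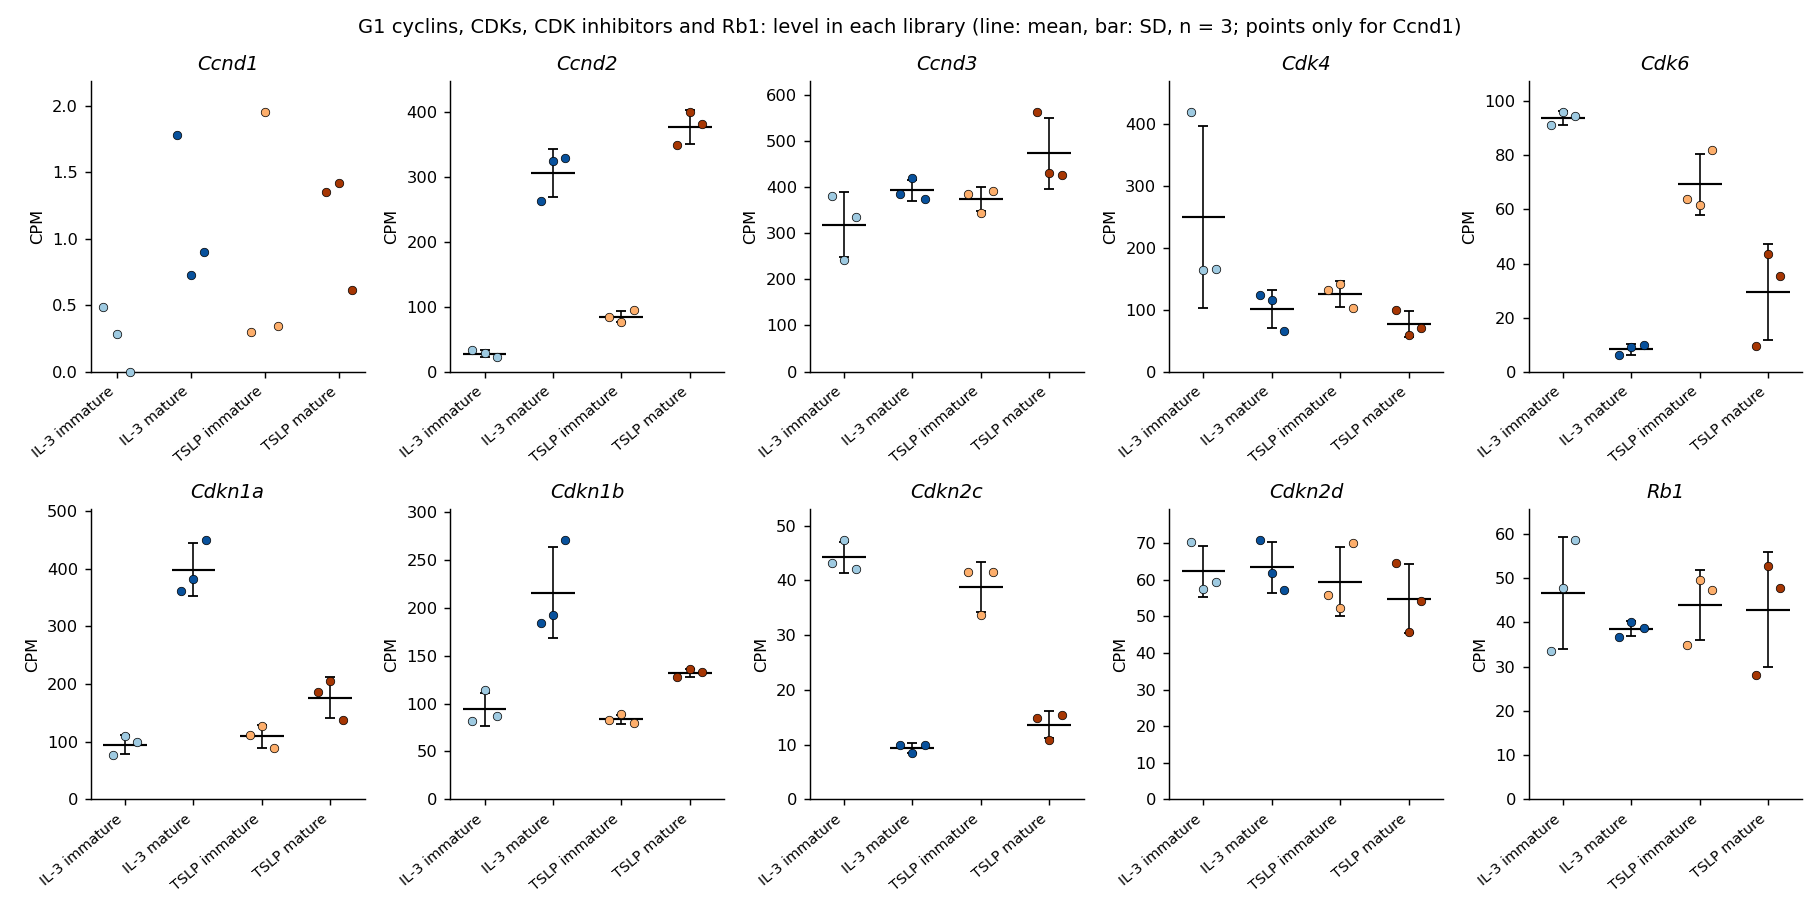
Level of each of the 10 genes in CPM (y axis, from 0) in the 12 libraries, with the 4 groups on the x axis; points are libraries, lines are means and bars are SD of 3 libraries, and Ccnd1 has points only. Ccnd2 was at 263 CPM or more in all mature libraries and at 94.3 CPM or less in all immature ones, while Cdkn2d stayed between 45.7 and 70.9 CPM throughout.

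Ccnd2, the D-type cyclin known as a direct target of cytokine signalling in several blood lineages (chromosome 6, 127125162 to 127152193, minus strand, GRCm38), was the D-type cyclin that changed most. It measured 33.0, 28.3 and 21.9 CPM in the IL-3 immature libraries, 263, 324 and 330 CPM in IL-3 mature, 84.5, 76.2 and 94.3 CPM in TSLP immature and 349, 400 and 382 CPM in TSLP mature. All mature libraries lay above all immature ones, and the TSLP immature libraries lay between the IL-3 immature and the mature libraries. Mature cells held 11-fold more Ccnd2 RNA than immature cells in IL-3 (log2 fold change of immature over mature -3.47 ± 0.20, SE, edgeR adjusted p = 2.03e-09) and 4.44-fold more in TSLP (-2.15 ± 0.19, edgeR adjusted p = 5.49e-07). TSLP immature cells held 3.07-fold more than IL-3 immature cells (1.62 ± 0.19, edgeR adjusted p = 5.96e-05), the one member that changed between the cytokines at the immature stage. Between the mature groups the difference was 0.30 with a 95% interval of -0.07 to 0.68 (edgeR adjusted p = 0.226). The maturation effect itself differed between cytokines by 1.32 ± 0.26 on the log2 scale (edgeR adjusted p = 0.00877).

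Ccnd3, a D-type cyclin used widely in lymphoid and myeloid cells (chromosome 17, 47505051 to 47599691, plus strand), was high in every library. Its levels were 381, 241 and 334 CPM in IL-3 immature, 385, 419 and 375 CPM in IL-3 mature, 384, 344 and 392 CPM in TSLP immature and 562, 431 and 426 CPM in TSLP mature cells. The IL-3 groups overlapped, and the TSLP groups were separated by a gap smaller than the spread within TSLP mature. Immature over mature, the log2 fold change was -0.30 in IL-3 (95% interval -0.71 to 0.10) and -0.34 in TSLP (-0.75 to 0.06), or -0.11 without TSLP mature 1. TSLP mature stood 0.27 above IL-3 mature cells (edgeR adjusted p = 0.333), or 0.04 without that library. Ccnd1 (chromosome 7, 144929931 to 144939925, minus strand), the D-type cyclin common in epithelial and mesenchymal cells, was near the detection limit, with 0 to 5 counts in a library. Summed over 3 libraries it had 2 counts in IL-3 immature (0.233 CPM, 95% Poisson interval 0.0282 to 0.842), 9 in IL-3 mature (1.16 CPM, 0.53 to 2.2), 7 in TSLP immature (0.793 CPM, 0.319 to 1.63) and 12 in TSLP mature (1.14 CPM, 0.592 to 2), intervals that overlap and cover counting error only. It failed the filter on low counts and was not tested.

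Cdk6, a cyclin D kinase prominent in blood progenitors (chromosome 5, 3341485 to 3531008, plus strand), was lower in mature than in immature cells of both cultures, and lower in IL-3 mature than in TSLP mature cells. It measured 91.2, 96.0 and 94.4 CPM in IL-3 immature, 6.06, 9.11 and 9.92 CPM in IL-3 mature, 64.0, 61.7 and 82.1 CPM in TSLP immature and 9.44, 43.4 and 35.4 CPM in TSLP mature libraries. Immature and mature libraries did not overlap, and TSLP mature 1, the library that stood apart, lay within the IL-3 mature range while the other two lay between IL-3 mature and the immature groups. The log2 fold change of immature over mature was 3.50 ± 0.40 in IL-3 (11.2-fold, edgeR adjusted p = 3.25e-06) and 1.24 ± 0.35 in TSLP (2.36-fold, edgeR adjusted p = 0.0148). Without TSLP mature 1 the TSLP value was 0.90 ± 0.18 (edgeR adjusted p = 0.00134). TSLP mature cells held 3.52-fold more Cdk6 RNA than IL-3 mature cells (1.82 ± 0.41, edgeR adjusted p = 0.00572), and without TSLP mature 1 the difference was 2.16 ± 0.22 (edgeR adjusted p = 1.14e-05). Between the immature groups it was -0.44 (95% interval -1.14 to 0.26, edgeR adjusted p = 0.416), and it passed at -0.48 without TSLP mature 1 (edgeR adjusted p = 0.0394). The maturation effect differed between cytokines by -2.25 ± 0.53 (edgeR adjusted p = 0.0234). Without TSLP mature 1 this difference was -2.64 ± 0.27 (edgeR adjusted p = 2.56e-05), whereas leaving out any one of 7 libraries ended the call (IL-3 immature 2 or 3, IL-3 mature 1 or 2, TSLP immature 1 or 2, or TSLP mature 2, edgeR adjusted p = 0.0536 to 0.0733).

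Cdk4, the other cyclin D kinase, is expressed in most proliferating cells (chromosome 10, 127063534 to 127067920, plus strand), and it changed with maturation in the IL-3 cultures. Its levels were 419, 164 and 165 CPM in IL-3 immature, 123, 115 and 65.4 CPM in IL-3 mature, 132, 142 and 102 CPM in TSLP immature and 100, 59.3 and 69.8 CPM in TSLP mature cells. IL-3 immature 1 stood far above the other two of its group, which themselves lay above every IL-3 mature library. Immature over mature, the log2 fold change was 1.29 ± 0.34 in IL-3 (2.46-fold, edgeR adjusted p = 0.00524), and 0.72 ± 0.27 without IL-3 immature 1 (edgeR adjusted p = 0.0451). In TSLP it was 0.71 with a 95% interval that just reached 0 (-0.0013 to 1.43, edgeR adjusted p = 0.135), and it passed when IL-3 immature 1 (0.79, edgeR adjusted p = 0.0312) or TSLP mature 1 (1.06, edgeR adjusted p = 0.0323) was left out of the fit. It passed too with the replicate block (0.74, edgeR adjusted p = 0.0313) and without the filter on low counts (0.75, edgeR adjusted p = 0.00731). Between the immature groups TSLP stood -0.98 from IL-3 (edgeR adjusted p = 0.0626), a value of -0.40 without IL-3 immature 1 (edgeR adjusted p = 0.419) that passed instead without IL-3 immature 3 (-1.24, edgeR adjusted p = 0.0425) or TSLP mature 1 (-1.01, edgeR adjusted p = 0.0275). It also passed with the replicate block (-0.87, edgeR adjusted p = 0.0203), without the filter (-1.01, edgeR adjusted p = 0.000149) and with DESeq2 (-1.04, adjusted p = 0.0365).

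The promoters of both kinases hold the E-box CACGTG, a hexamer bound by Myc-Max dimers, and their upstream sequences are shown for that reason. RefSeq promoter windows on GRCm38.p6, 250 bases before to 50 after a start site, were matched for 7 of the 10 members (10 windows). The 250 bases upstream of the start are given 5′ to 3′ on the plus strand, with each E-box in capitals.
Cdk4, chr10:127063285-127063534: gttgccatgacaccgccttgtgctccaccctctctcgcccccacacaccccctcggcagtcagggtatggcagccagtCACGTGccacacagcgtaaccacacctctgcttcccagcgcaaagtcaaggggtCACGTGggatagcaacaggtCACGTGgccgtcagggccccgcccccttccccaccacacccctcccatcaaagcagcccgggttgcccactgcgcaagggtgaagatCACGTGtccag
Cdk6, chr5:3343643-3343892: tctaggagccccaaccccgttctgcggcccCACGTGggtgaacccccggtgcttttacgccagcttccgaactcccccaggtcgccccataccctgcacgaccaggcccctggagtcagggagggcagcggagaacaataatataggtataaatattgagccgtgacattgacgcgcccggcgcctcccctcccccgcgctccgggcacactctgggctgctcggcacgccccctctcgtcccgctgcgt
The Cdk4 sequence holds 4 E-boxes, starting at -172, -118, -98 and -11 from the start site, a number reached by 8 of 32851 promoter windows (0.0244%), and the Cdk6 sequence holds 1, at -220. An E-box was also found at 35 in 1 of the windows of Cdkn2c, and in none of Ccnd3, Cdkn1a, Cdkn1b and Cdkn2d, so 3 of the 10 windows searched held it beside 7.15% of all windows. These 3 are the members that were higher in IL-3 immature cells, and the match is a description of letters that was looked for with the expression values known. Ccnd1, Ccnd2 and Rb1 had no window and were not searched. The match therefore leaves out Ccnd2, which was lower in IL-3 immature cells. Of the other motifs searched on both strands, the E2F octamers (TTTCCCGC, TTTCGCGC, TTTGCCGC, TTTGGCGC; 2.26% of all windows) and the STAT motif TTCNNNGAA (8.3%) were found in 0 of the 10, TATAAA (13.6%) in 1, that of Cdk6, and CCAAT (37.4%) in 4, of Ccnd3, Cdkn1b, Cdkn2c and Cdkn2d.

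The Cip/Kip inhibitors were both higher in mature cells, with the larger change for Cdkn1a, a p53 target that binds cyclin-kinase complexes (chromosome 17, 29090976 to 29100727, plus strand). It measured 76.2, 110 and 99.0 CPM in IL-3 immature, 362, 382 and 450 CPM in IL-3 mature, 112, 128 and 88.5 CPM in TSLP immature and 187, 205 and 137 CPM in TSLP mature libraries. The immature groups overlapped each other, TSLP mature lay above them, and IL-3 mature lay above all. The log2 fold change of immature over mature was -2.06 ± 0.21 in IL-3 (4.18-fold more in mature cells, edgeR adjusted p = 9.4e-07) and -0.69 ± 0.21 in TSLP (1.61-fold more, edgeR adjusted p = 0.0216). The TSLP call was lost when any one of 8 libraries was left out (IL-3 immature 2 or 3, IL-3 mature 2 or 3, TSLP immature 1 or 3, or TSLP mature 1 or 2, edgeR adjusted p = 0.0512 to 0.164). Without TSLP mature 1 the value was -0.55 (edgeR adjusted p = 0.0644). TSLP mature cells held 2.26-fold less Cdkn1a than IL-3 mature cells (-1.17 ± 0.21, edgeR adjusted p = 0.00125). The maturation effect differed between cytokines by 1.37 ± 0.29 (edgeR adjusted p = 0.0132), and this was lost only without TSLP immature 2 (1.26, edgeR adjusted p = 0.0512) among the 12 fits that left out a library.

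Cdkn1b, a Cip/Kip inhibitor that accumulates in quiescent cells and is controlled largely at the protein level (chromosome 6, 134920401 to 134925513, plus strand), was also highest in IL-3 mature and next highest in TSLP mature cells, with smaller steps. Its levels were 81.5, 114 and 86.7 CPM in IL-3 immature, 184, 193 and 271 CPM in IL-3 mature, 83.0, 88.7 and 79.3 CPM in TSLP immature and 128, 136 and 133 CPM in TSLP mature cells. The mature groups did not overlap the immature ones or each other. Immature over mature, the log2 fold change was -1.19 ± 0.19 in IL-3 (2.30-fold more in mature cells, edgeR adjusted p = 7.49e-05) and -0.66 ± 0.19 in TSLP (1.59-fold more, edgeR adjusted p = 0.0152). The TSLP call was lost without any one of 5 libraries (TSLP immature 1, 2 or 3, or TSLP mature 2 or 3, edgeR adjusted p = 0.0587 to 0.0952). TSLP mature cells held 1.63-fold less than IL-3 mature cells (-0.70 ± 0.18, edgeR adjusted p = 0.0125). The difference of 0.53 in the maturation effect between cytokines (95% interval -0.03 to 1.08) did not pass (edgeR adjusted p = 0.298).

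The Ink4 inhibitors differed from each other. Cdkn2c (chromosome 4, 109660876 to 109667189, minus strand), an inhibitor of Cdk4 and Cdk6 that is itself known as an E2F-responsive gene, measured 43.2, 47.4 and 42 CPM in IL-3 immature, 9.97, 8.38 and 9.92 CPM in IL-3 mature, 41.5, 33.6 and 41.5 CPM in TSLP immature and 14.8, 10.8 and 15.4 CPM in TSLP mature libraries. Every immature library lay above every mature one, and replicates were tight. The log2 fold change of immature over mature was 2.23 ± 0.21 in IL-3 (4.69-fold, edgeR adjusted p = 3.04e-07) and 1.51 ± 0.19 in TSLP (2.84-fold, edgeR adjusted p = 2.73e-05), and both calls held in each fit that left out 1 library. Between the cytokines the differences were 0.54 in mature cells (95% interval 0.07 to 1.00, edgeR adjusted p = 0.0862) and -0.18 in immature cells (-0.56 to 0.20, edgeR adjusted p = 0.544). Cdkn2d (chromosome 9, 21288410 to 21291407, minus strand), the paralogous inhibitor of the same kinases, stayed at 70.3, 57.4 and 59.3 CPM in IL-3 immature, 70.9, 61.9 and 57.3 CPM in IL-3 mature, 55.9, 52.4 and 70.1 CPM in TSLP immature and 64.5, 45.7 and 54.2 CPM in TSLP mature cells. All 4 groups overlapped. Its log2 fold change of immature over mature was -0.03 in IL-3 (95% interval -0.42 to 0.36) and 0.12 in TSLP (-0.27 to 0.51), and the IL-3 value changed sign under other scalings.

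Rb1, the retinoblastoma gene itself (chromosome 14, 73183673 to 73325822, minus strand), passed the test in none of the 6 comparisons. Its levels were 33.5, 47.7 and 58.6 CPM in IL-3 immature, 36.7, 40.1 and 38.8 CPM in IL-3 mature, 34.9, 49.6 and 47.3 CPM in TSLP immature and 28.1, 52.8 and 47.7 CPM in TSLP mature libraries. The groups overlapped throughout. Immature over mature, the log2 fold change was 0.28 in IL-3 (95% interval -0.24 to 0.81) and 0.03 in TSLP (-0.48 to 0.55). The unadjusted edgeR p-values of the 6 Rb1 comparisons ranged from 0.267 to 0.888.

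**Figure D2:**
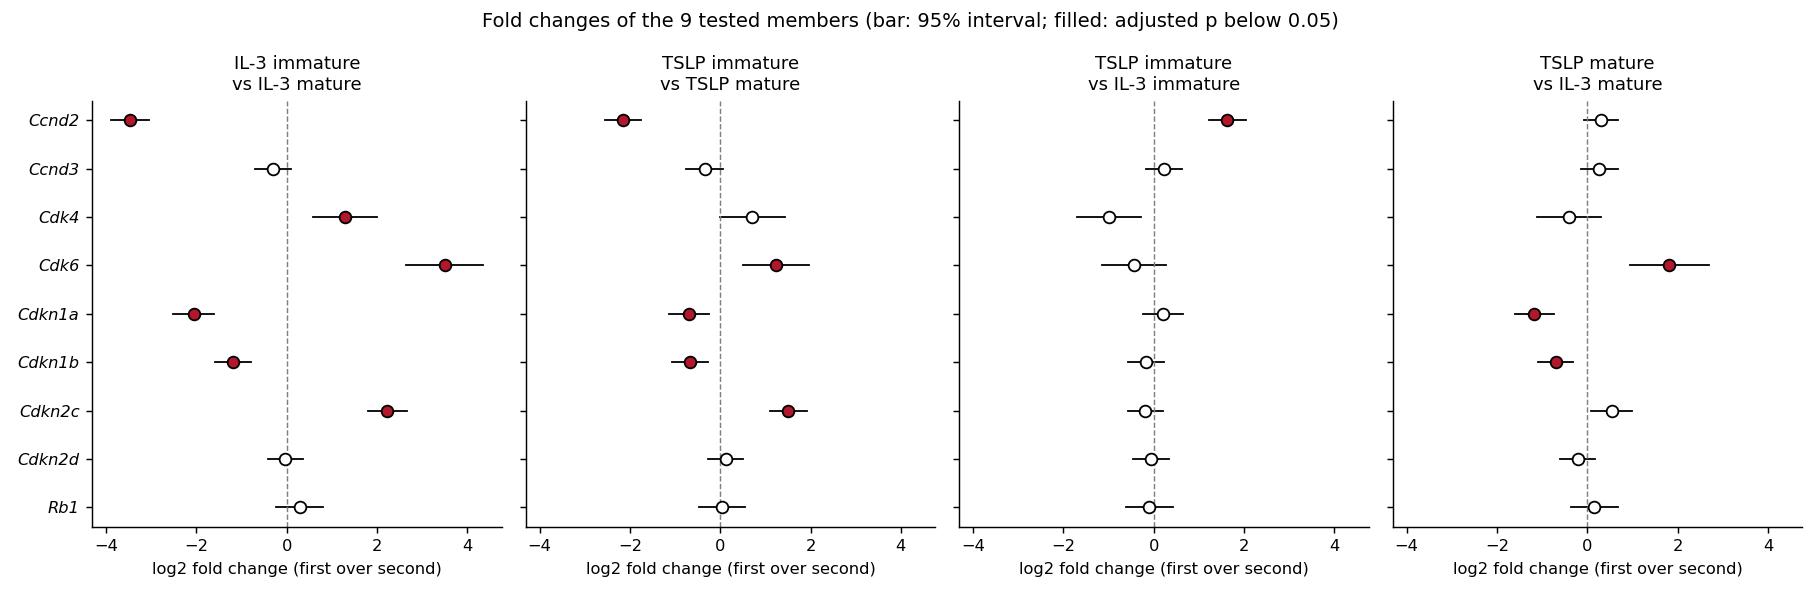
Log2 fold change (x axis) of the 9 tested members (y axis) in 4 comparisons, with 95% intervals as bars and filled points for adjusted p below 0.05. The points for Ccnd2, Cdkn1a and Cdkn1b lie left of 0 and those for Cdk6 and Cdkn2c right of 0 in both maturation panels, with IL-3 values farther from 0 than TSLP values, and Ccnd2 is the one filled point between the immature groups.

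Between cytokines, the members were compared at each stage. In mature cells 3 of 9 members differed (24.3% of all genes did), 1 higher in TSLP (Cdk6, with 12.4% of all genes in that direction) and 2 lower (Cdkn1a and Cdkn1b, with 11.9%). In immature cells 1 of 9 differed (13.3% of all genes), or 2 without IL-3 immature 3 and 3 without TSLP mature 1. It was Ccnd2, which was higher in TSLP as were 7.38% of all genes, while 5.9% were lower. These comparisons share their samples with the maturation comparisons above, so their values are not separate support for them. The test of the difference between the maturation effects passed for 3 of 9 members, Ccnd2, Cdk6 and Cdkn1a, beside 4.19% of all genes, and in each the TSLP effect was nearer to 0 than the IL-3 effect. Without TSLP immature 2, 1 of them passed (Ccnd2). Set directly against IL-3 immature cells, TSLP mature cells differed in 7 of 9 members (50.6% of all genes), 4 higher (27% of all genes) and 3 lower (23.5%). Ccnd2 was 3.77 ± 0.20 higher on the log2 scale (edgeR adjusted p = 1.23e-09), Cdkn1a 0.89 ± 0.21 higher (edgeR adjusted p = 0.00211), and Cdk4, Cdk6 and Cdkn2c were lower with log2 fold changes of -1.70 ± 0.34, -1.68 ± 0.35 and -1.69 ± 0.19. The 2 other calls, Ccnd3 at 0.57 (edgeR adjusted p = 0.0206) and Cdkn1b at 0.49 (edgeR adjusted p = 0.0365), changed with the settings used. Among 8 other ways of processing, the Ccnd3 call was lost in 5 (edgeR adjusted p up to 0.0766) and the Cdkn1b call in 7 (adjusted p up to 0.168, DESeq2 included). The Ccnd3 call held in the fits without IL-3 immature 1, IL-3 mature 1 or TSLP mature 3 and was lost in the 9 fits without any other library (edgeR adjusted p up to 0.25), with a value of 0.30 without TSLP mature 1. The Cdkn1b call held in those without IL-3 immature 2 or IL-3 mature 1 and was lost in the other 10 (edgeR adjusted p up to 0.231). Cdkn2d passed in 1 of these fits, without TSLP mature 1 (-0.44, edgeR adjusted p = 0.0398).

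Ratios of related members within a library do not depend on library size and were tested by an exact two-sided permutation test that shuffled labels within the other factor (10 tests, Benjamini-Hochberg adjusted, smallest p the design allows 0.005). The Ccnd3 to Ccnd2 ratio of counts was 8.49 to 15.2 in IL-3 immature and 4.15 to 4.54 in TSLP immature libraries, and 1.14 to 1.46 and 1.08 to 1.61 in the IL-3 and TSLP mature ones. It was thus higher in immature cells by 2.48 on the log2 scale (exact permutation adjusted p = 0.0167), and higher in all 6 immature libraries than in any mature one. The cytokine effect on this ratio was -0.71 (exact permutation adjusted p = 0.0833), and it passed without TSLP mature 1 (-0.81, exact permutation adjusted p = 0.0333). The Cdkn2c to Cdkn2d ratio was 0.615 to 0.826 and 0.593 to 0.743 in the immature groups and 0.138 to 0.176 and 0.232 to 0.286 in the mature ones, a stage effect of 1.81 (exact permutation adjusted p = 0.0167). The Cdk6 to Cdk4 ratio ranged from 0.218 to 0.587 in immature and from 0.0507 to 0.155 in mature libraries of IL-3 cultures, 0.436 to 0.801 in TSLP immature and 0.0953 to 0.733 in TSLP mature libraries. The low end of the last range was TSLP mature 1, and the stage effect of 1.52 did not pass (exact permutation adjusted p = 0.0833). The Cdkn1a to Cdkn1b ratio was 1.66 to 1.98 in IL-3 mature libraries and 0.935 to 1.5 in the other groups, with a stage effect of -0.45 that did not pass (exact permutation adjusted p = 0.0833) except without TSLP mature 3 (-0.54, exact permutation adjusted p = 0.0333). The Ccnd1 to Ccnd2 ratio had a stage effect of 1.62 (exact permutation adjusted p = 0.0167) that rests on 0 to 5 Ccnd1 counts a library, follows Ccnd2 in its denominator, and was lost in 6 of the 12 fits that left out a library, namely without TSLP mature 1 (1.72), 2 (1.69) or 3 (1.45), TSLP immature 2 (1.22), IL-3 mature 2 (1.48), or IL-3 immature 1 (1.45).

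**Figure D3:**
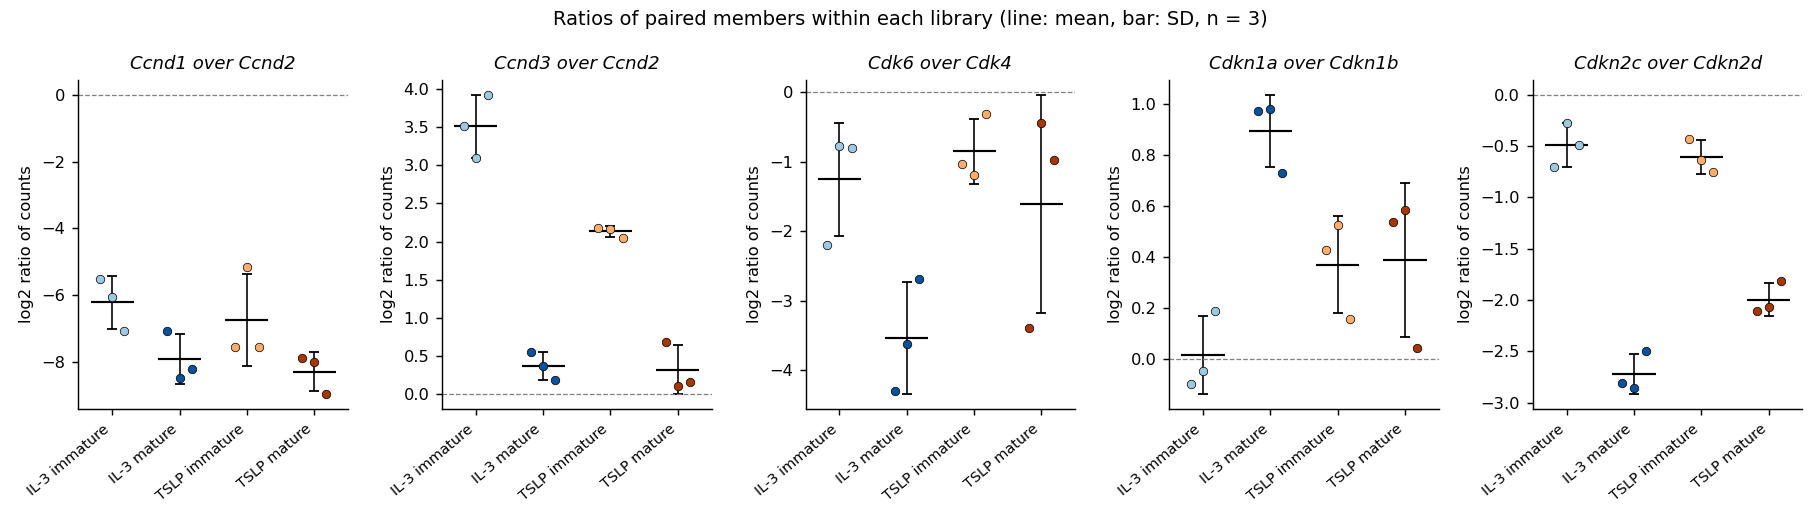
Log2 ratio of counts (y axis) of 5 pairs of members in each library by group (x axis), with a pseudocount of 0.5; points are libraries, lines are means and bars are SD of 3 libraries. Ccnd3 over Ccnd2 falls from 3.51 to 0.37 in IL-3 and from 2.13 to 0.32 in TSLP, whereas Cdk6 over Cdk4 in TSLP mature is spread by 1 low library.

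Levels of different genes were compared per kilobase of the longest annotated coding transcript, in CPM per kb. RNA was captured on oligo(dT) beads and coverage along the transcripts was not examined, so this scale may set long transcripts too low. Ccnd3 was at the top in TSLP cells of both stages and in IL-3 immature cells, at 177 ± 12.1 (SD, n = 3) in TSLP immature, 224 ± 36.4 in TSLP mature and 151 ± 33.7 in IL-3 immature, where Cdk4 at 121 ± 71.6 was within the spread. In IL-3 mature cells Cdkn1a at 191 ± 22.2 and Ccnd3 at 186 ± 10.9 did not differ beyond their spread. This order rests on the length used for Ccnd3, whose longest coding transcript is 2.11 kb and whose exons together span 8.78 kb. Per kb of all exons, Ccnd3 stood at 36.3 ± 8.13 in IL-3 immature cells, beside Cdk4 at 76.6 ± 45.2 and Cdkn2d at 39.6 ± 4.44. In IL-3 mature cells it stood at 44.8 ± 2.64, below Cdkn1a at 112 ± 13. In TSLP mature cells it was at 53.9 ± 8.78 beside Cdkn1a at 49.6 ± 9.93. The orders of Ccnd2 and Ccnd3, Cdk6 and Cdk4, and Cdkn2c and Cdkn2d given next were the same on both lengths. Per kb of the transcript, Ccnd2 stood at 4.38 ± 0.88 in IL-3 immature and 59.6 ± 4.09 in TSLP mature cells, below Ccnd3 in every group on this scale. Cdk6 stood below Cdk4 in every group, at 8.14 ± 0.21 against 121 ± 71.6 in IL-3 immature and 0.725 ± 0.177 against 49.3 ± 15.2 in IL-3 mature cells. The Cdk6 transcript of 11.52 kb makes this scale sensitive to the isoform that is used and to uneven coverage. By counts alone, the Cdk4 to Cdk6 ratio was 1.7 to 4.58 in IL-3 immature libraries. Cdkn2d exceeded Cdkn2c in every group, at 43.8 ± 4.91 against 17.9 ± 1.15 in IL-3 immature and 44.5 ± 4.86 against 3.81 ± 0.37 in IL-3 mature cells. Rb1 was at 8.27 to 10 CPM per kb in the means of all groups.

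**Figure D4:**
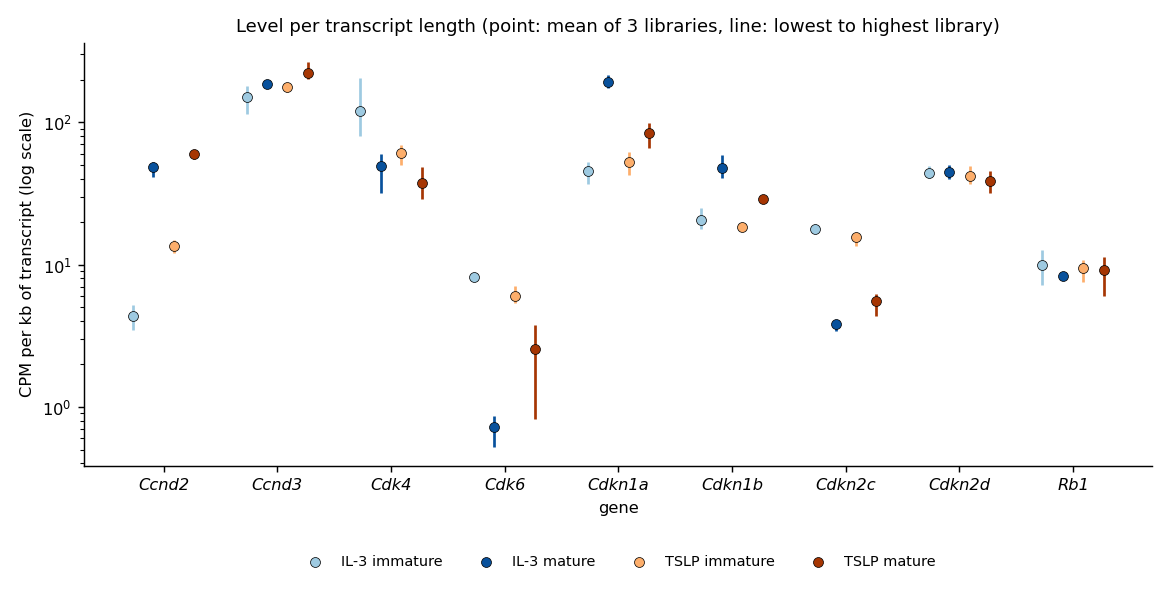
Mean level in CPM per kb of transcript (y axis, log scale) of the 9 tested members (x axis) in the 4 groups; points are means and lines run from the lowest to the highest of 3 libraries. Ccnd3, from 151 to 224, is above Ccnd2 in every group, and the Cdkn2d points stay level while the Cdkn2c points drop in mature cells.

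Other genes of the same pathway were mostly higher in immature cells. Of 20 further G1 genes 19 were tested, and 12 were higher and 3 lower in IL-3 immature than in IL-3 mature cells (median log2 fold change 1.79, beside -0.06 over all genes), with 11 higher and 1 lower in TSLP cultures (median 0.74, beside -0.03), or 7 higher without TSLP immature 2 and 3 lower without TSLP mature 1. Of all genes, 22.1% were higher and 24.1% lower in IL-3 immature cells, and 12.2% and 12.9% in TSLP immature cells. Cks1b, a cofactor of the ubiquitin ligase that degrades p27, averaged 118 CPM in immature and 1.11 CPM in mature cells of IL-3 cultures, and 70.9 and 4.24 CPM in TSLP. Cdc25a, the phosphatase that activates Cdk2, had a log2 fold change of immature over mature of 2.79 ± 0.33 in IL-3 (edgeR adjusted p = 4.21e-06) and 2.09 in TSLP (edgeR adjusted p = 0.000131). Rbl1 (p107), a pocket protein related to Rb1, changed by 2.61 ± 0.29 in IL-3 (edgeR adjusted p = 2.42e-06), and Cdk2, the kinase of cyclin E, by 1.96 ± 0.22 (edgeR adjusted p = 2.36e-06). The 3 lower genes were Rbl2 (p130), the pocket protein of quiescent cells, Fbxw7 and Cdkn2b (p15), named after their values were seen. The Fbxw7 call (-0.86, edgeR adjusted p = 0.026) was lost without IL-3 immature 1 or 3 or IL-3 mature 2 or 3 (edgeR adjusted p = 0.0655 to 0.137). With immature before mature, Rbl2 averaged 65.5 and 159 CPM in IL-3 and 112 and 163 CPM in TSLP cells, and Cdkn2b 0.396 and 15.9 CPM, and 1.92 and 8.57 CPM. Cdkn2b, an Ink4 inhibitor, was thus called in the direction opposite to Cdkn2c in both cytokines (edgeR adjusted p = 5.08e-06 and 0.00388).

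**Figure D5:**
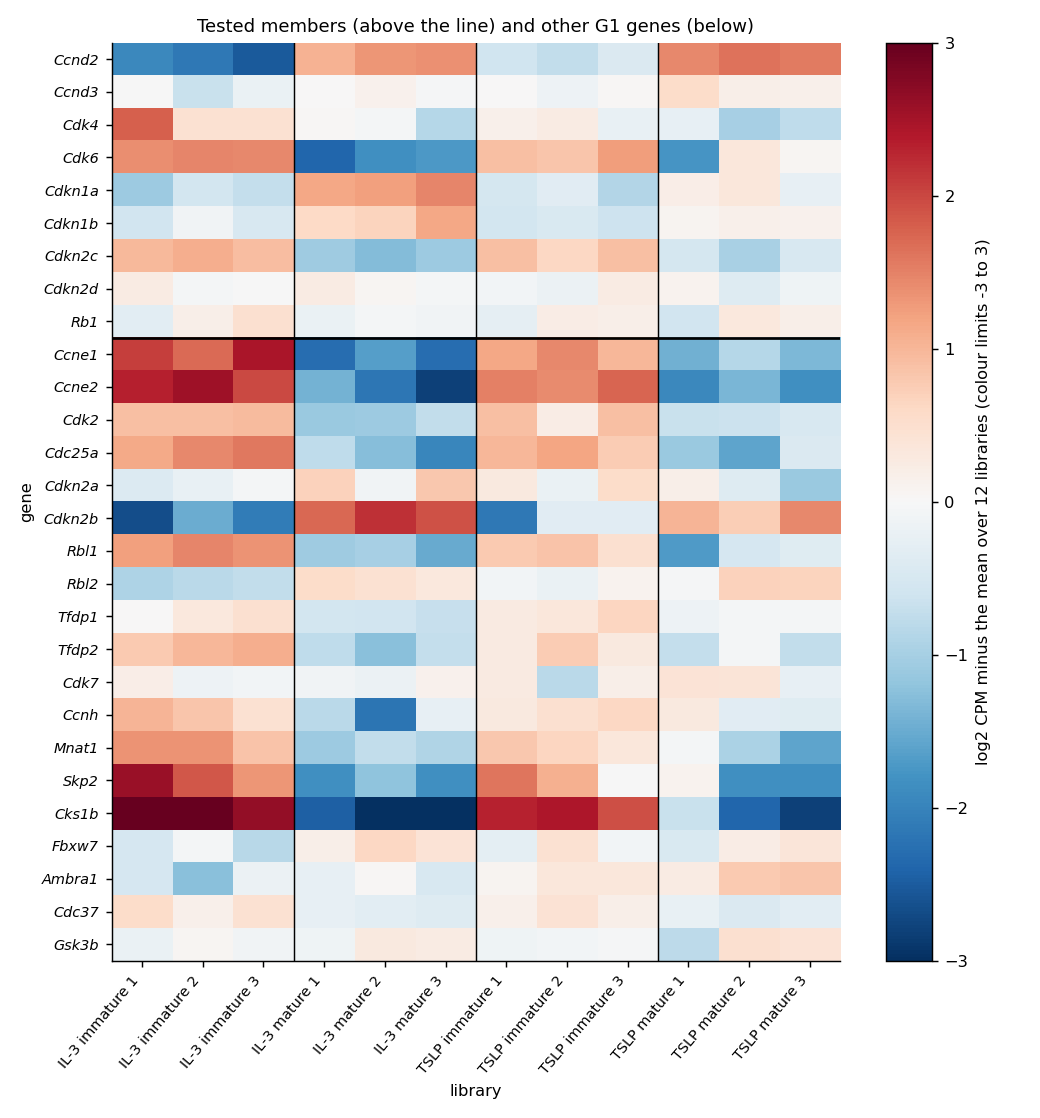
Log2 CPM minus the gene's mean over 12 libraries (colour, limits -3 to 3) for the 9 tested members and 19 other G1 genes (rows) in the 12 libraries (columns). Ccnd2, Cdkn1a, Cdkn1b, Cdkn2b and Rbl2 are mostly red in mature libraries, Cdk6, Cdkn2c, Ccne1, Ccne2, Cdc25a, Rbl1 and Cks1b in immature ones, and in TSLP mature 1 Cdk6 is blue as in IL-3 mature.

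With maturation, the p53 targets that passed the test did so in the direction of Cdkn1a. Of 16, 15 were tested, and 9 were lower in IL-3 immature than in IL-3 mature cells while the other 6 did not pass (median -1.08, with 24.1% of all genes lower). In TSLP 3 were lower (median -0.55, with 12.9% of all genes lower), or 6 without TSLP mature 1. Between the cytokines, 1 was higher and 1 (Fas) lower in TSLP mature than in IL-3 mature cells, beside 12.4% and 11.9% of all genes. In TSLP immature cells 2 were higher than in IL-3 immature cells (7.38% of all genes), where Cdkn1a did not pass. Sesn2, a stress-induced regulator of mTORC1, had log2 fold changes of -2.35 ± 0.24 (edgeR adjusted p = 7.52e-07) and -1.36 (edgeR adjusted p = 0.000164) in IL-3 and TSLP, Bbc3 (Puma) -1.35 ± 0.21 (edgeR adjusted p = 6.73e-05) and -0.92 (edgeR adjusted p = 0.00401), Btg2 -1.33 ± 0.25 in IL-3 and Pmaip1 (Noxa) -1.27 ± 0.23 in IL-3. In TSLP, Btg2 at -0.58 (edgeR adjusted p = 0.0892) and Pmaip1 at -0.55 (edgeR adjusted p = 0.0923) did not pass in the main fit. Sesn2 was the target that was higher in TSLP mature than in IL-3 mature cells (0.82, edgeR adjusted p = 0.00967), where Cdkn1a was lower. That call was lost without IL-3 mature 3 (0.58, edgeR adjusted p = 0.069). Trp53 itself, the gene of p53, went the other way, at 65.9 CPM before and 31.9 CPM after maturation in IL-3 (1.05 ± 0.17, edgeR adjusted p = 0.000117). Fas, named after its values were seen, was the one gene of this list whose maturation effect differed between cytokines, with 1.58 CPM in immature and 26.3 CPM in mature cells of IL-3 cultures and 3.48 and 7.96 CPM in those of TSLP cultures (a difference of 3.10, edgeR adjusted p = 0.0264, with 4.19% of all genes called). This call was lost without any one of 6 libraries (TSLP immature 1 or 3, any IL-3 mature one, or IL-3 immature 2, edgeR adjusted p = 0.0524 to 0.0936).

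Of 12 transcription factors known to act on these genes 10 were tested, and 2 were higher and 5 lower in IL-3 immature cells (median -0.47), beside 22.1% and 24.1% of all genes, with 3 lower without IL-3 immature 2. In TSLP 1 was higher and 4 lower (median -0.48), beside 12.2% and 12.9% of all genes, or 1 to 2 lower without any one of IL-3 immature 2, IL-3 mature 2 or 3, or a library of either TSLP group other than TSLP mature 1. Myc, which represses Cdkn1a and Cdkn2b and activates Cdk4 in other cells, averaged 14 CPM in IL-3 immature, 6.46 CPM in IL-3 mature, 29.9 CPM in TSLP immature and 22.6 CPM in TSLP mature cells. It was higher in TSLP than in IL-3 at the mature stage (1.79, edgeR adjusted p = 0.00103) and at the immature stage (1.06, edgeR adjusted p = 0.0168), where the call was lost without IL-3 immature 1 or 2 or TSLP immature 1 or 3 (edgeR adjusted p = 0.0551 to 0.0814). Foxo1 and Foxo3, forkhead factors that activate Cdkn1b, were lower in IL-3 immature than in IL-3 mature cells at -1.11 ± 0.24 (edgeR adjusted p = 0.00124) and -1.26 ± 0.22 (edgeR adjusted p = 0.000245). In TSLP, Foxo1 passed at -1.44 (edgeR adjusted p = 0.000202), while Foxo3 at -0.58 (edgeR adjusted p = 0.0633) did not pass in the main fit.

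The proliferation indicators named by their fold change followed the stage in both cytokines: all 15 were higher in immature cells in IL-3 (median 5.79) and in TSLP (median 3.28). Of all genes, 22.1% were higher in immature cells in IL-3 and 12.2% in TSLP. Top2a averaged 540 CPM in immature and 6.55 CPM in mature cells with IL-3 and 328 and 19.1 CPM in TSLP, and Mki67, the gene of the Ki-67 antigen, 666 and 8.14 CPM, and 427 and 22.6 CPM. Rrm2 averaged 119 and 1.21 CPM and Aurkb 39.3 and 0.356 CPM in the IL-3 groups. In TSLP mature cells 12 of the 15 were higher than in IL-3 mature cells (median 1.54), beside 12.4% of all genes. The maturation effect was smaller in TSLP for 10 of the 15, where 4.19% of all genes passed the interaction test. Some of these calls changed with the settings. Between the mature groups the call was lost in 14 alternatives for Tyms, 12 for Plk1 and 9 for Aurkb. The interaction call was lost in 10 for Cdk1 and 8 for Ccnb1.

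By the root mean square difference of centred log2 CPM over the 12 libraries, the genes most like Ccnd2 among 7541 candidates of at least 10 CPM were Bcar3 (0.254), Itgam (0.29) and Nt5e (0.294), where the median candidate was at 1.52. Itgam, the integrin chain CD11b, averaged 165 CPM in immature and 1380 CPM in mature cells with IL-3, and 626 and 1780 CPM with TSLP. The genes most like Ccnd3 were Ddx41 (0.117), Nxf1 (0.126) and Pnpla2 (0.133), with a median candidate at 0.485, and these profiles were nearly flat. No such genes were sought for Ccnd1, which was not tested.

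Some member transcripts share sequence with neighbours in the annotation, and the strand and the treatment of reads with several matches were not found in the study's methods. Of the 50-base stretches of the coding transcripts, 28.9% for Cdk4 also occur in other transcripts, among them those of Tspan31, and 27.2% for Ccnd1 in those of Oraov1 (Lto1), both of which overlap the member on the opposite strand, 18% for Ccnd3 in those of Bysl or a Ccnd3 pseudogene, and 0 for Cdkn1b, Cdkn2c and Cdkn2d. Tspan31 had 21.8 to 32.3 CPM in IL-3 immature, 25.9 to 29.8 CPM in IL-3 mature, 24.2 to 31.3 CPM in TSLP immature and 41.2 to 55.9 CPM in TSLP mature libraries, so it did not follow Cdk4. Bysl had 9.02 to 15.7 CPM over all libraries. Oraov1 had 13.9 to 23.3 CPM in IL-3 immature, 27.5 to 37.2 CPM in IL-3 mature, 21.1 to 25.9 CPM in TSLP immature and 15.6 to 21.8 CPM in TSLP mature libraries. These levels are far above those of Ccnd1, and the part of Oraov1 reads in the few Ccnd1 counts was not tested.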

How the data were processed

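Messenger RNA of sorted basophils was captured on oligo(dT) beads, amplified by whole-transcriptome PCR, fragmented and sequenced on an Ion Proton. The authors trimmed reads with Cutadapt and aligned them with Bowtie2 to mouse reference RNA of GRCm38, as the study's methods state. The submitters' processing notes list cutadapt, Bowtie2, GRCm39 and mm10, so the build is not certain, and how reads with several matches, strand or PCR duplicates were treated is not given in the sources used here. The deposited unit is raw read counts per gene symbol, 12 columns in 1 table. A row without a symbol equals the column totals (50% of the column sums) and was left out. Rn18s and Rn28s1 counts added up to 98.2 to 99.9% of the Rn45s count, so reads in sequence shared by rows were divided between them or counted under each.

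Counts were fitted in R 4.3.3 with edgeR 4.0.16 (quasi-likelihood test on the 4 groups, TMM scaling, filterByExpr with a minimum count of 10 and total of 15). The filter left 10861 genes, which held 99.5 to 99.7% of counts, with a biological coefficient of variation of 20.4% in common. P-values were Benjamini-Hochberg adjusted over all genes tested and called below 0.05. CPM values were taken from TMM-scaled totals. Ratios used counts plus 0.5. Intervals are 95%, and those of counts cover counting error only. The numbers of replicates name the libraries. The tests were checked on simulated counts. For edgeR, few genes were changed there, in a single group and equally up and down. That check therefore does not cover comparisons in which 46.2% of all genes were called, as between the IL-3 groups. Alternatives were other size factors, TMM on uncalled genes, removal of Rn45s, other filters, DESeq2 1.42.0, the compared groups alone, a replicate block and leaving out each library. Removal of Rn45s left Rn18s and Rn28s1 in the counts. All 10 members are named. For the other lists up to 4 genes are named, those with the largest absolute log2 fold change among called genes of at least 10 CPM between the IL-3 groups, and exceptions are stated. The members and lists were chosen with earlier results of these data known. Coordinates and lengths are from GENCODE M21 (GRCm38).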

Additional observations from a re-analysis of the deposited data

Results flagged for a closer look

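The difference in maturation effect between the TSLP and IL-3 cultures passed the edgeR interaction test for 3 members. For Ccnd2 the immature over mature log2 fold change was 1.32 higher in TSLP, for Cdkn1a it was 1.37 higher, and for Cdk6 it was -2.25, that is, lower in TSLP. In TSLP mature 1, the library with raised neutrophil and B lineage markers, Cdk6 was at 9.44 CPM, and the part of those markers in its value was not tested.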

How the results depend on the processing

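Across 9 tested members, 6 comparisons and 20 alternatives, 976 of 1071 values kept direction and side of the threshold, 56 lost the call, 12 gained it and 27 changed sign. With IL-3, the 6 calls held under every alternative tried. The count in TSLP immature against TSLP mature was 3 with the compared groups alone and 3 to 6 over fits leaving out a library. In TSLP immature against IL-3 immature it was 2 without the filter, with DESeq2, with the compared groups alone and with the replicate block, and 1 to 3 over fits leaving out a library. The interaction count was 1 to 3 over the latter. The replicate numbers share no stated source, and the main fit leaves out any such source. Of 18 same-number pairs, 7 had deviations correlated above 0.1 (range -0.0769 to 0.388), beside -0.305 to 0.272 in pairs with different numbers. The replicate block moved no other count of members by over 1.5 times. Over all genes it gave more calls in every comparison, with 1893 against 1443 between the immature groups. Leaving out a library gave 1.22 to 1.83 for the Ccnd1 to Ccnd2 stage effect, -0.819 to -0.61 for the Ccnd3 to Ccnd2 cytokine effect, -0.537 to -0.396 for the Cdkn1a to Cdkn1b stage effect and -0.124 to 0.0118 for its cytokine effect.

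The sign changes concerned values of at most 0.152 in size, other than the Cdk4 interaction of -0.577, which became 0.0663 without IL-3 immature 1. The IL-3 maturation value of Cdkn2d was 0.0402 with DESeq2 size factors, 0.0487 without Rn45s, 0.0604 without the filter, 0.0848 with a filter of 10 CPM in 3 libraries, 0.0381 with DESeq2, 0.0472 with the compared groups alone and -0.0918 to 0.0765 leaving out a library. Leaving out a library gave -0.211 to 0.0151 for Cdkn2d and -0.288 to 0.0606 for Rb1 between the immature groups, -0.106 to 0.283 for Rb1 in TSLP maturation, -0.086 to 0.301 for Rb1 between the mature groups, and interactions of -0.187 to 0.155 for Ccnd3 and -0.788 to 0.0663 for Cdk4. The causes were not tested.

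In TSLP maturation the Cdkn1a call was lost without Rn45s (edgeR adjusted p = 0.0511), with the 10 CPM filter (edgeR adjusted p = 0.0541) and with the compared groups alone (edgeR adjusted p = 0.0737), the last also for Cdk6 (edgeR adjusted p = 0.0705). Removing Rn45s shifted the median of all genes between TSLP mature and IL-3 immature by -0.122, and the 10 CPM filter by -0.136. At 1720065 to 3685285 counts a library, Ccnd1 was too rare to compare.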
